A study of Mus musculus with 24 samples.

Results

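The comparison asked for which genes the difference between Th1 and Th2 cultures of CD4+ T cells appeared, faded or turned round during the first day of culture. It rests on 8 of 24 RNA-sequencing libraries, those of Th1 and Th2 cultures at 4 and 8 h (early) and at 20 and 24 h (late). For each gene, the log2 difference Th2 minus Th1 was averaged within each pair of time points, and the early mean was subtracted from the late one. The cells were CD4+ T cells of wildtype C57BL/6 mice, taken from the spleens of pooled adult mice by negative selection on magnetic beads. Every culture was stimulated through CD3 and CD28 with antibodies, which for the Th0 cultures, a further reference, was the whole treatment. To this the Th1 cultures added recombinant IL-12 and an antibody that blocks IL-4. The Th2 cultures instead added recombinant IL-4 together with antibodies that block IL-12 and IFN-γ. The labels describe purified CD4+ cells, whereas the methods of the study name naive cells. Each condition and time point was sequenced once, so the 2 time points of a window stand in for replicates. Change between 4 and 8 h, or between 20 and 24 h, that all conditions share is taken out by the fit. The spread is how far a difference between conditions shifts between the 2 time points of a window. The p-values rest on that shift within 1 pool of cells, and not on replicate cultures or animals. Mapped reads, recovered from the values, were between 19474405 and 30830243 in the 8 libraries.

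Naive CD4+ T cells can become Th1 cells, which make IFN-γ, or Th2 cells, which make IL-4, IL-5 and IL-13. IL-12, through STAT4, and IFN-γ raise T-bet, the transcription factor encoded by Tbx21. IL-4 acts through STAT6 to raise GATA3. Each programme restrains the other, and the IL-12 receptor chain encoded by Il12rb2 is kept by developing Th1 cells and lost by Th2 cells.

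The difference did not widen over the genome as a whole. RPKM (reads scaled to transcript length and to mapped reads) were compared as log2(RPKM + 0.5), a scale that understates the change of low genes, for the 10737 genes whose mean over the 18 Th0, Th1 and Th2 cultures reached 1 RPKM. The SD of the Th2 minus Th1 difference over these genes was 0.47 at 4 h, 0.42 at 8 h, 0.39 at 20 h and 0.45 at 24 h. At 4 h, 430 genes were at least 2-fold apart, and 233 of them were higher in Th2. At 24 h, 321 genes were at least 2-fold apart, and 123 of them were higher in Th2. The genes higher in Th1 numbered 197 at 4 h, 226 at 8 h, 229 at 20 h and 198 at 24 h. The median late minus early difference over all genes was -0.05, and 44.2% of genes lay above 0. By limma with Benjamini-Hochberg adjustment, 230 genes (2.14%) differed at least 2-fold in the early window and 248 (2.31%) in the late window at an adjusted p under 0.05. Early, 90 genes (0.838%) were higher in Th2 and 140 (1.3%) lower, and late, 74 (0.689%) were higher and 174 (1.62%) lower. Of the early genes 43.9% also passed in the late window, and of the late genes 40.7% had passed in the early one. In 100 genes the difference passed in both windows with the same sign and in 1 with opposite signs, and incomplete overlap of 2 thresholded lists does not show that the other genes changed. Without 20 h the late number was 96, and without 24 h it was 77.

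**Figure D1:**
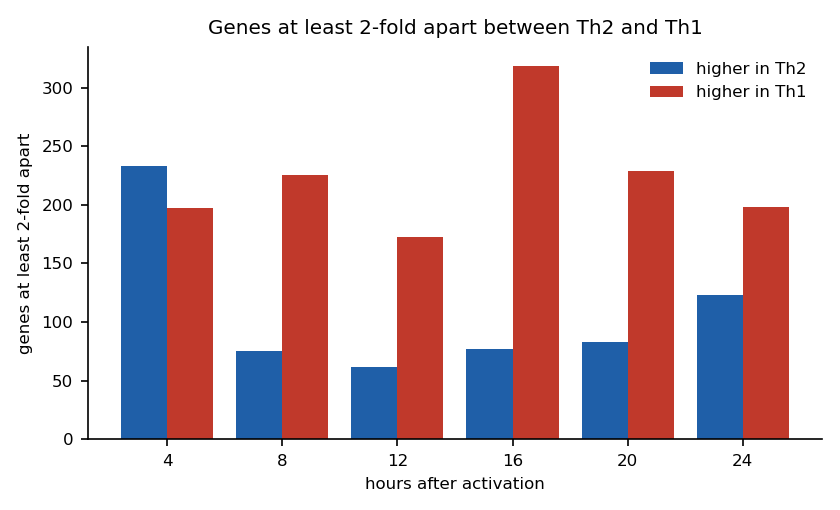
Number of genes at least 2-fold apart between Th2 and Th1 cultures at each time point (x axis, hours after activation), with genes higher in Th2 in blue and genes higher in Th1 in red. The number higher in Th2 was 233 at 4 h and between 62 and 123 later, and the number higher in Th1 was between 173 and 319.

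For 23 of 10737 genes (0.214%) the late difference departed from the early one at least 2-fold at an adjusted p under 0.05 (limma). The contrast moved toward Th1 for 17 genes (0.158%), among them Tbx21, Il12rb2, Lta and Eomes, the 4 called members of the Th1 programme list, and the interferon-induced factor Irf8. The difference of Eomes faded from the Th2 side, at 1.01 early and -0.40 late. It moved toward Th2 for 6 genes (0.0559%), led by Csf1, Erbb3 and Id1. In 13 genes the difference appeared, which means that it was under 2-fold early and at least 2-fold late. In 5 genes it faded from at least 2-fold to less, in 4 it reversed with at least 0.5 on the log2 scale on each side, and in 1 it grew from over 2-fold. In all 23 genes both early differences lay on one side of both late differences, a separation that the choice of these genes favours and that is no support for them (44.0% of all genes tested show it). A late minus early difference of at least 2-fold was found in 205 genes (1.91%), of which these 23 passed the test. At the edge of the threshold, Mink1 was inside at a late minus early difference of -1.20 and an adjusted p of 0.0442. Eps15 was outside with the same adjusted p of 0.0442, because its difference of 0.84 was under 2-fold. The calls lean on single time points: 0 genes passed without 20 h and 0 without 24 h (1644 and 474 genes had an unadjusted p under 0.05 by limma), while 261 passed without 8 h. Without 4 h 24 genes passed, of which 14 were among the 23, and the other calls were lost. All 23 genes kept their direction in each of these 4 fits, which the separation described above makes certain and which is no support.

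**Figure D2:**
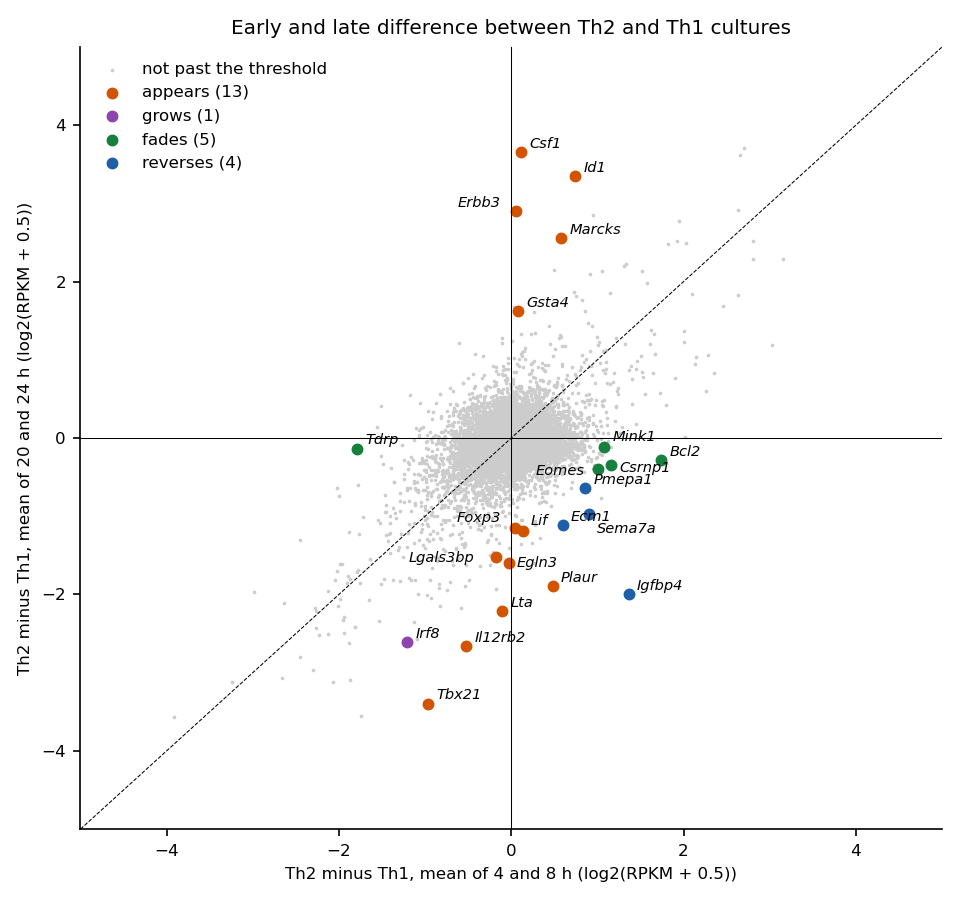
Mean Th2 minus Th1 difference at 4 and 8 h (x axis) against that at 20 and 24 h (y axis), both on the log2(RPKM + 0.5) scale, for 10737 genes. The dashed line marks equal differences, grey points did not pass the threshold, and the 23 genes that passed are coloured by whether the difference appeared, grew, faded or reversed.

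Tbx21, Il12rb2, Lta and Irf8 became lower in Th2 relative to Th1 over the day. Tbx21 (ENSMUSG00000001444.2, chromosome 11 from 97098071 to 97115331 on the minus strand) encodes T-bet. It was at 16.5 and 20.2 RPKM at 4 and 8 h and 44.3 and 47.0 RPKM at 20 and 24 h in Th1 cultures, and at 9.70 and 8.48 RPKM at 4 and 8 h and 4.30 and 3.50 RPKM at 20 and 24 h in Th2 cultures. It went up in Th1 and down in Th2, and the groups did not overlap in either window. The ratio of Th2 to Th1 was 0.586 (95% interval 0.523 to 0.655) at 4 h and 0.0746 (95% interval 0.0648 to 0.0854) at 24 h, where the intervals cover counting error only. On the log2 scale the difference went from -0.97 to -3.40, a change of -2.42 ± 0.29 (SE), with an adjusted p of 0.00875 (limma). Since the early difference was just under 2-fold and had an adjusted p of 0.0136, Tbx21 counts as appearing only by the 2-fold limit.

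Il12rb2 (ENSMUSG00000018341.12, chromosome 6 from 67291318 to 67376188 on the minus strand) encodes the signalling chain of the IL-12 receptor. Its level at 4 h was 13.6 RPKM in Th1 and 13.4 RPKM in Th2. At 8 h it was 8.32 against 3.84 RPKM, at 20 h 11.8 against 1.81 RPKM, and at 24 h 16.4 against 1.75 RPKM. The cultures started level, and the Th2 level fell while the Th1 level dipped and recovered. The difference went from -0.53 to -2.66, a change of -2.14 ± 0.36 (adjusted p = 0.0285, limma). This call depends on the processing, and it was lost with median-of-ratios scaling and without an intensity trend in the fit. An exon of Il12rb2 overlaps an exon of Serbp1 on the other strand, and reads of the pair cannot be told apart because the strand setting of the counting is not given in the sources used here.

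Lta (ENSMUSG00000024402.5, chromosome 17 from 35203165 to 35205351 on the minus strand) encodes lymphotoxin-α, a TNF-family cytokine of Th1 cells. Th1 cultures held 29.3 and 83.0 RPKM at 4 and 8 h and 179.8 and 224 RPKM at 20 and 24 h, and Th2 cultures held 34.3 and 61.6 RPKM at 4 and 8 h and 44.9 and 40.9 RPKM at 20 and 24 h. The Th1 level climbed at each time point shown, whereas the Th2 level peaked at 8 h. The ratio of Th2 to Th1 was 1.17 (95% interval 1.07 to 1.28) at 4 h and 0.183 (95% interval 0.172 to 0.193) at 24 h. The change of the difference was -2.11 ± 0.27 (adjusted p = 0.0125, limma). The early difference was -0.10 (adjusted p = 0.799) and the late one -2.21.

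Irf8 (ENSMUSG00000041515.10, chromosome 8 from 120736358 to 120756694 on the plus strand) encodes an interferon regulatory factor that IFN-γ induces. It was already lower in Th2 at 4 h, at 65.9 against 129 RPKM, and at 8 h, at 54.5 against 149.7 RPKM. Late values were 50.2 and 52.6 RPKM in Th2 and 292 and 345 RPKM in Th1. Irf8 was the 1 gene whose difference grew from over 2-fold, from -1.21 to -2.61 (change -1.41 ± 0.21, adjusted p = 0.0138, limma). The Th2 level stayed within a narrow range while the Th1 level climbed.

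The promoters of the genes that moved toward Th1 were read for motifs, since the cultures differ in cytokines that signal through STAT factors. The windows, from RefSeq on GRCm38.p6, run from 250 bases before to 50 bases after a start site, and 16 of the 17 genes had at least 1. The letters TTCNNNGAA, a STAT motif with 3 free bases that reads the same on both strands, were found in 5 of the 16 genes (31.2%) and in 8.47% of 8181 tested genes with a window. The motif with 4 free bases, TTCNNNNGAA, was found in 1 of the 16 genes (6.25%) and in 6.47% of all. The core of the interferon-stimulated response element, TTTCNNTTTC on either strand, was found in 1 gene (6.25%), Eomes, and in 3.98% of all. These genes had 1.31 windows each and all tested genes 1.27. Among the 16, only Csrnp1, Foxp3 and Irf8 had more than 1 window, and each of them had the motif with 3 free bases in 1 window. The match of Csrnp1 began at 38, past the start site. The matches with 3 free bases were in Irf8, Lta, Il12rb2, Foxp3 and Csrnp1. They are a description of letters, not of binding. Of the 6 genes that moved toward Th2, 1 had a window, and it held none of the motifs. The promoters of Irf8, Lta and Il12rb2, the 3 with such a match among the 4 genes described first, are shown, with the matches in capitals and the sequences written 5′ to 3′ on the strand of the gene.
Irf8 promoter, chr8:120736108-120736407, plus strand: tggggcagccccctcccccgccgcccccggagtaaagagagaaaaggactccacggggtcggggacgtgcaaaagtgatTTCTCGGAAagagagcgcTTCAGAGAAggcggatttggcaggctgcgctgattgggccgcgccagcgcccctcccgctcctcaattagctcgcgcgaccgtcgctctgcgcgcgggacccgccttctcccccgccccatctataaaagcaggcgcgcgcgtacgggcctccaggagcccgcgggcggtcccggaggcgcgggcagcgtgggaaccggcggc
Lta promoter, chr17:35205302-35205601, minus strand: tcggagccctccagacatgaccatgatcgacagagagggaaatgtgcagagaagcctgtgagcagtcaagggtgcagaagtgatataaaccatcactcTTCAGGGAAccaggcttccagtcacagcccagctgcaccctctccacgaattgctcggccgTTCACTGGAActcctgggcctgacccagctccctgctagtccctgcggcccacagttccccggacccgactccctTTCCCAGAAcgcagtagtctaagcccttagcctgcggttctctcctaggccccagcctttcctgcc
Il12rb2 promoter, chr6:67376139-67376438, minus strand: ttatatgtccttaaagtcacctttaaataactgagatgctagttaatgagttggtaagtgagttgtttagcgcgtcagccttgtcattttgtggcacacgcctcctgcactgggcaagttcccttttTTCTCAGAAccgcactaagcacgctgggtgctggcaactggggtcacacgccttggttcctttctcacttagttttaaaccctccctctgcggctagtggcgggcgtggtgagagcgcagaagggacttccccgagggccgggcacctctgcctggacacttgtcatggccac
In Irf8 the matches with 3 free bases begin at -171 and -153 from the start site, in Il12rb2 the match begins at -123, and in Lta they begin at -152 and -16. The Lta match that begins at -91 has 4 free bases.

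A further 5 genes became lower in Th2, and their early differences had not passed the threshold. Plaur, the urokinase receptor, was at 8.86, 4.61, 5.19 and 9.79 RPKM in Th1 and 10.7, 7.80, 1.65 and 1.48 RPKM in Th2 at 4, 8, 20 and 24 h. It was somewhat higher in Th2 early and lower late, a change of -2.37 ± 0.33 (adjusted p = 0.0125, limma), and its Th2 to Th1 ratio at 24 h was 0.152 (95% interval 0.112 to 0.203). Egln3, a prolyl hydroxylase that acts on hypoxia-inducible factors, was at 3.84, 2.80, 7.85 and 10.4 RPKM in Th1 and 3.50, 2.93, 2.63 and 2.67 RPKM in Th2. Its early levels were the same within counting error, with a ratio of 0.912 (95% interval 0.747 to 1.11) at 4 h, and the rise came in Th1. Lgals3bp, a secreted galectin-binding glycoprotein, fell in both conditions but further in Th2, where it went from 41.6 RPKM at 4 h to 8.42 RPKM at 24 h, against 43.7 and 25.03 RPKM in Th1. Lif, a cytokine of the IL-6 family, was at 11.4, 11.8, 15.7 and 18.5 RPKM in Th1 and 15.6, 10.4, 6.56 and 7.89 RPKM in Th2. Foxp3, the transcription factor of regulatory T cells, was at 32.6, 29.3, 24.4 and 24.8 RPKM in Th1 and 37.3, 27.3, 12.3 and 9.47 RPKM in Th2. The conditions were level for Foxp3 at 4 and 8 h, and by 24 h Th2 cultures held 0.381 of the Th1 level. The changes of the difference were -1.57 for Egln3, -1.35 for Lgals3bp, -1.32 for Lif and -1.20 for Foxp3, with adjusted p between 0.0222 and 0.0344 (limma). In bulk RNA fewer cells of a kind and less RNA in each cell cannot be told apart. Exons of Foxp3 overlap exons of other genes on the other strand.

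None of the genes that came up late in Th2 belongs to the Th2 programme list. With 21 genes of that list tested and 0.0559% of all genes called toward Th2, this absence is uninformative. Csf1 (ENSMUSG00000014599.10, chromosome 3 from 107741048 to 107760469 on the minus strand) encodes M-CSF, the growth factor of macrophages. In Th1 cultures it was at 4.02 and 2.56 RPKM at 4 and 8 h and 1.78 and 1.21 RPKM at 20 and 24 h. In Th2 cultures it was at 2.88 and 4.31 RPKM at 4 and 8 h and 23.9 and 25.04 RPKM at 20 and 24 h. The early groups overlapped, with Th2 lower at 4 h and higher at 8 h, and the late groups were 13.4-fold and 20.7-fold apart. The difference went from 0.12 to 3.66, a change of 3.54 ± 0.40 (adjusted p = 0.00875, limma), the largest of the 23. Th0 cultures held 2.62 and 2.32 RPKM late, near the Th1 level.

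Erbb3 (ENSMUSG00000018166.8, chromosome 10 from 128567523 to 128589652 on the minus strand) encodes a neuregulin receptor of the epidermal growth factor receptor family. Th1 cultures stayed between 1.15 and 1.59 RPKM at the 4 time points, while Th2 cultures went from 1.44 and 1.14 RPKM to 16.5 and 12.9 RPKM. The ratio of Th2 to Th1 was 0.991 (95% interval 0.788 to 1.24) at 8 h and 11.4 (95% interval 10.0 to 13.0) at 20 h. Id1 (ENSMUSG00000042745.9, chromosome 2 from 152736251 to 152737410 on the plus strand) encodes an inhibitor of basic helix-loop-helix transcription factors. It was at 1.40, 2.33, 1.94 and 1.61 RPKM in Th1 and 4.39, 2.57, 22.97 and 22.2 RPKM in Th2 at 4, 8, 20 and 24 h. At 4 h Id1 was 3.12-fold higher in Th2, at 8 h 1.10-fold, and late they were 11.8-fold and 13.7-fold apart. Marcks, an actin-binding substrate of protein kinase C, was at 2.40, 1.90, 1.59 and 1.55 RPKM in Th1 and 3.36, 3.55, 11.3 and 12.0 RPKM in Th2. Gsta4, a glutathione transferase, was at 1.36, 1.22, 1.59 and 1.36 RPKM in Th1 and 1.49, 1.29, 4.95 and 6.25 RPKM in Th2. Its early reads were few, so the ratio at 4 h was only known as 1.10 (95% interval 0.629 to 1.91), and at 24 h it was 4.60 (95% interval 3.18 to 6.805). The changes of the difference were 2.85 ± 0.41 for Erbb3, 2.61 ± 0.41 for Id1, 1.97 ± 0.27 for Marcks and 1.54 ± 0.26 for Gsta4, with adjusted p between 0.0125 and 0.0309 (limma). In resting cells Marcks was at 16.6 and 15.6 RPKM, above its level in every culture.

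**Figure D3:**
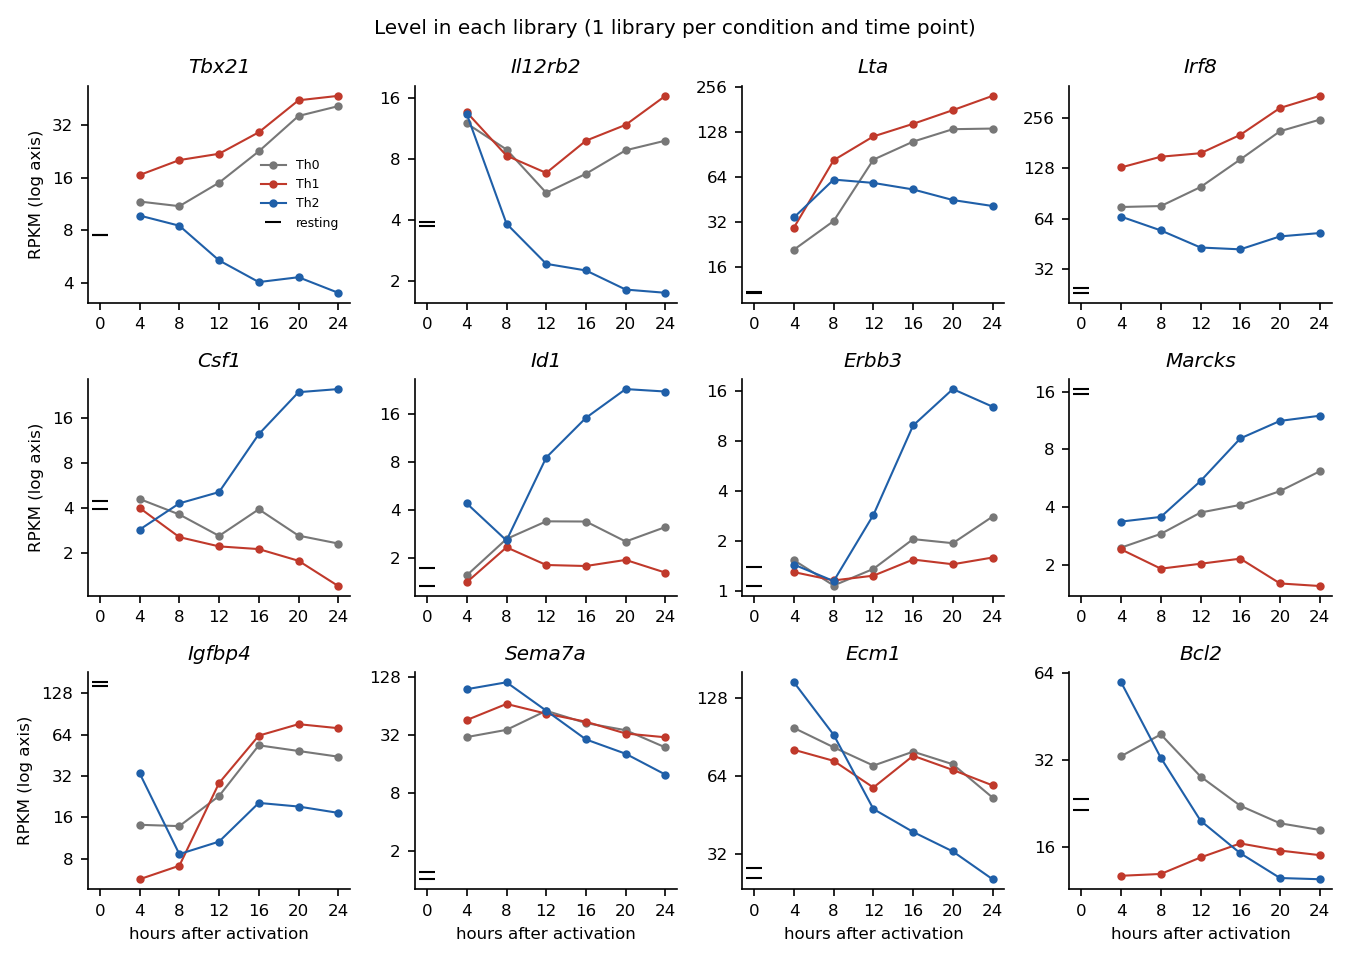
RPKM (y axes, log scale) at each time point (x axes, hours after activation) for 12 of the 23 genes in Th0 (grey), Th1 (red) and Th2 (blue) cultures, each point 1 library, with the resting libraries as black bars at 0 h. The red and blue lines of Tbx21, Il12rb2, Lta, Csf1, Id1, Erbb3 and Marcks draw apart, and those of Igfbp4, Sema7a and Ecm1 cross.

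In 4 genes the difference turned round from Th2 to Th1. Igfbp4, a binding protein of insulin-like growth factors that naive T cells express, was at 5.66 and 7.09 RPKM at 4 and 8 h and 76.1 and 71.1 RPKM at 20 and 24 h in Th1 and at 33.4 and 8.62 RPKM at 4 and 8 h and 19.1 and 17.2 RPKM at 20 and 24 h in Th2. It was 5.91-fold higher in Th2 at 4 h, but only 1.22-fold at 8 h, so the early side of the reversal rests on the 4 h libraries. Between the windows Igfbp4 rose by 3.44 in Th1, 1.70 in Th0 and 0.08 in Th2 on the log2 scale. Resting cells held 144.5 and 153.6 RPKM, above the level in every culture. The difference went from 1.36 to -1.99, a change of -3.35 ± 0.50 (adjusted p = 0.0138, limma), and it was -1.37 by 12 h. Igfbp4 was also the 1 gene that passed the 2-fold threshold in both windows with opposite signs.

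Sema7a, a membrane-bound semaphorin, was at 46.3, 68.0, 33.5 and 30.6 RPKM in Th1 and 96.8, 114, 20.7 and 12.6 RPKM in Th2 at 4, 8, 20 and 24 h. Early values were higher in Th2 and late values lower, with ratios of 2.09 (95% interval 2.00 to 2.18) at 4 h and 0.410 (95% interval 0.382 to 0.440) at 24 h. Ecm1, a secreted matrix protein, was at 81.0, 73.4, 67.7 and 59.0 RPKM in Th1 and 148, 92.5, 32.8 and 25.6 RPKM in Th2. Pmepa1, a membrane protein that restrains TGF-β signalling, was at 19.9, 20.6, 18.9 and 19.6 RPKM in Th1, where it hardly moved, and 35.3, 39.1, 13.3 and 11.2 RPKM in Th2. In these 3 genes the turn came from the Th2 cultures, whose level fell by 2.67, 1.99 and 1.56 on the log2 scale between the windows. The changes of the difference were -1.87 ± 0.25, -1.71 ± 0.23 and -1.49 ± 0.21, each with an adjusted p of 0.0125 (limma). Both sides of each reversal also passed an adjusted p under 0.05. Of their early and late differences, 0.90 and -0.97 for Sema7a, 0.60 and -1.11 for Ecm1 and 0.86 and -0.64 for Pmepa1, the late one of Ecm1 alone reached 2-fold.

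In 5 genes an early difference was lost. Bcl2, which protects lymphocytes from apoptosis, was at 12.7, 12.9, 15.6 and 15.0 RPKM in Th1 and 59.6, 32.6, 12.5 and 12.4 RPKM in Th2. The Th2 level started above the Th1 level and came down to somewhat below it. The ratio of Th2 to Th1 went from 4.68 (95% interval 4.46 to 4.91) at 4 h to 0.825 (95% interval 0.781 to 0.872) at 24 h. Th0 cultures held 33.1 and 39.4 RPKM of Bcl2 at 4 and 8 h, so Th2 was above Th0 at 4 h but not at 8 h. Csrnp1, a nuclear protein, also went from above to below Th1 in Th2 cultures. Its ratio was 2.85 (95% interval 2.73 to 2.98) at 4 h and 1.76 (95% interval 1.68 to 1.84) at 8 h. At 24 h it was 0.740 (95% interval 0.695 to 0.787). Eomes, a T-box factor related to T-bet, was at 6.57, 7.56, 16.7 and 18.3 RPKM in Th1 and 15.4, 13.9, 14.9 and 11.6 RPKM in Th2, so that Th1 cultures caught up with a higher Th2 level. Mink1, a kinase of the STE20 group, was 2.66-fold higher in Th2 at 4 h, 1.70-fold at 8 h and 1.01-fold at 20 h. At 8 h Csrnp1, Eomes and Mink1 were each under 2-fold apart, so their early 2-fold difference leans on the 4 h libraries. Tdrp, a gene named for testis development, was the 1 gene to fade from the Th1 side, at 51.7, 22.1, 7.81 and 5.03 RPKM in Th1 and 11.2, 7.92, 6.22 and 5.17 RPKM in Th2. It fell in both conditions, and further in Th1. The changes of the difference were -2.03 ± 0.30 for Bcl2, -1.50 ± 0.22 for Csrnp1, -1.40 ± 0.21 for Eomes, -1.20 ± 0.21 for Mink1 and 1.66 ± 0.26 for Tdrp, with adjusted p between 0.0138 and 0.0442 (limma). Exons of Bcl2, Csrnp1, Eomes and Mink1 overlap exons of other genes on the other strand.

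The 12 and 16 h libraries, which do not enter the estimates, show when the differences moved. The mean difference at 12 and 16 h lay between the early and late means in 22 of the 23 genes, and Lif was the exception. A gap of at least 2-fold makes such a place likely, so the 47.2% of all genes tested, whose gaps are mostly small, is no fair background. Il12rb2, Tbx21, Lta and Irf8 moved toward Th1 at every step from 4 to 24 h. For Csf1 and Erbb3 the largest step fell between 12 and 16 h, from 1.05 to 2.30 and from 0.96 to 2.35. Sema7a, Pmepa1, Bcl2 and Csrnp1 crossed 0 between 12 and 16 h, and Igfbp4 and Ecm1 between 8 and 12 h.

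**Figure D4:**
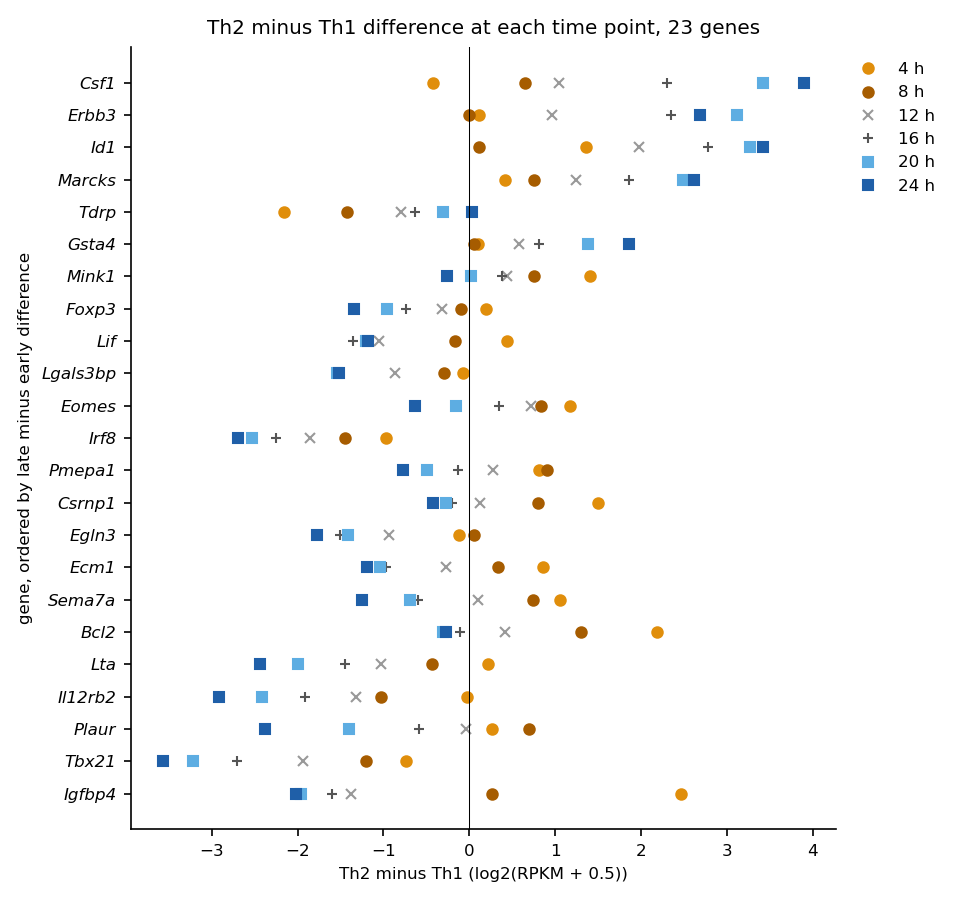
Th2 minus Th1 difference on the log2(RPKM + 0.5) scale (x axis) at 6 time points for the 23 genes (y axis, ordered by the late minus early difference). In every gene the early points (orange and brown) lie on one side of the late points (blue), as the choice of genes favours, and the 12 and 16 h symbols lie mostly between them.

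In most of these genes the Th2 cultures moved further than the Th1 cultures. Between the windows, the change was larger in Th2 in 16 of the 23 genes, beside 45.3% of all genes tested. The exceptions were Tbx21, Lta, Igfbp4, Egln3, Irf8, Eomes and Tdrp. Th1 and Th2 moved in opposite directions in 13 genes, beside 17.1% of all, a share that a contrast of their difference favours. Th0 cultures, activated without skewing cytokines, were nearer to Th1 than to Th2 in 21 of the 23 genes late, and in 11 of them early. Egln3 and Marcks were the late exceptions. Over all genes tested Th0 was nearer to Th1 in 67.8% late and 70.5% early, and among the 248 genes that passed in the late window in 81.9%. Tbx21 rose by 1.72 in Th0 and 1.30 in Th1 and fell by 1.13 in Th2 on the log2 scale. Lta rose by 2.35 in Th0 and 2.01 in Th1, and Irf8 by 1.60 and 1.19, while in Th2 their changes were -0.10 and -0.22. These changes within a condition have no test.

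Several genes that define the conditions did not pass, and many of them already differed at 4 h. Gata3, the Th2 transcription factor, was 3.13-fold higher in Th2 at 4 h and 4.31-fold at 24 h, with a late minus early difference of 0.41 ± 0.20 (adjusted p = 0.364, limma). Ifng was at 206, 414, 428 and 388 RPKM in Th1 and 60.5, 62.6, 75.0 and 66.2 RPKM in Th2, and its difference was -2.24 early and -2.52 late. Ccr4, a Th2 chemokine receptor, differed by 2.80 early and 2.52 late, and Fcer2a, an IL-4-induced IgE receptor, by 2.10 and 1.84. Fcer2a is also on the list of B cell markers, and bulk RNA does not tell which cells held it. Il4ra, the IL-4 receptor chain, had an early difference of 2.13 and a late one of 0.94. Its Th2 level was 363 RPKM at 4 h and 114 RPKM at 8 h, a gap within the early window, and the change of -1.18 ± 0.40 had an adjusted p of 0.233. The Th2 cytokines Il4, Il5 and Il13 did not pass either. Il4 differed by 0.42 early and -0.70 late, Il5 by 0.67 and 0.01, and Il13 by 0.63 and -0.21. The adjusted p for the change was 0.294, 0.477 and 0.122 (limma). Il4 did move apart in the middle of the course, lower in Th2 than in Th1. Its difference was -1.02 at 12 h, -1.93 at 16 h and -1.25 at 20 h, and -0.15 at 24 h. Cxcr3, a Th1 chemokine receptor, differed by -0.18 early and -0.79 late (adjusted p = 0.206). Stat6 and Stat4 had late minus early differences of -0.24 and 0.03.

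Lists of genes are described by their calls and medians, beside 6 calls up, 17 down and a median of -0.05 over all genes tested. The Th1 programme list had 26 genes tested, of which 0 moved toward Th2 and 4 toward Th1 (Tbx21, Il12rb2, Lta and Eomes), with a median late minus early difference of -0.62 and 23 genes below 0. Its median difference was -0.36 early and -1.19 late. Early, 6 of its genes were lower in Th2 and 2 higher, and late, 16 were lower and 1 higher. Over all genes tested, the background for each list, 1.3% were lower and 0.838% higher early, and 1.62% and 0.689% late. Eomes belongs to the Th1 programme list by function, but its difference went from the Th2 side to near 0. Members that did not pass include the chemokine genes Ccl3, at -0.37 early and -1.64 late (adjusted p = 0.0644), and Ccl4, at 0.00 and -1.14. The Th2 programme list had 21 genes tested and 0 calls in either direction, with medians of 0.51 early and 0.28 late. The IL-4 and STAT6 targets (23 genes, 0 calls) had medians of 0.37 and 0.25. Early, 7 of them were higher in Th2 and 0 lower, and late, 4 were higher and 1 lower. The list of IL-12 and STAT4 targets (19 genes, 2 calls toward Th1) had medians of -0.53 early and -1.17 late.

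Of the lists of interferon targets, only the GTPases were lower in Th2 in both windows for every gene tested. All 16 IFN-γ-inducible GTPases tested were lower in Th2 in both windows at the 2-fold threshold, and their median was -1.90 early and -2.18 late. For the change between the windows 0 of them passed, with late minus early differences from -1.22 to 0.53. Of 48 type I interferon antiviral genes, 13 were lower in Th2 early and 25 late with 0 calls for the change, and the median was -0.71 early and -1.08 late. Of 24 MHC class I and immunoproteasome genes tested, 3 were lower in Th2 early and 9 late, with 1 call for the change, Irf8, and a median change of -0.23. Chemokines and their receptors (25 tested) had 0 calls and a median change of -0.15. Cytokines and their receptors (46 tested) had 1 call up and 3 down and a median change of -0.48. Csf1 was the call up, Il12rb2, Lta and Lif the calls down, and Tnf missed the threshold at 0.27 early and -1.11 late (adjusted p = 0.0812). SOCS and STAT signalling genes (24 tested) and cytotoxic granule genes (13 tested) had 0 calls, with median changes of -0.20 and -0.18.

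The list of Treg and alternative fates (19 tested) had 1 call, Foxp3, a median change of -0.64 and 16 genes below 0. Gpr83, Tnfrsf4, Tnfrsf9 and Izumo1r, genes of regulatory and activated T cells, had changes of -1.32, -0.90, -0.89 and -0.87 with adjusted p between 0.104 and 0.196. Glycolysis and hypoxia genes (27 tested) had 1 call, Egln3, and a median change of -0.37, and 22 of them lay below 0. Eno1, the glycolytic enolase, was at 1.06 early and -0.21 late. Quiescence and homing genes (26 tested) had 1 call, Igfbp4, and a median change of 0.06. Cell cycle and replication genes (44 tested) had 0 calls and a median change of 0.17, and cholesterol and fatty acid synthesis genes (30 tested) had 0 calls and a median change of -0.08.

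**Figure D5:**
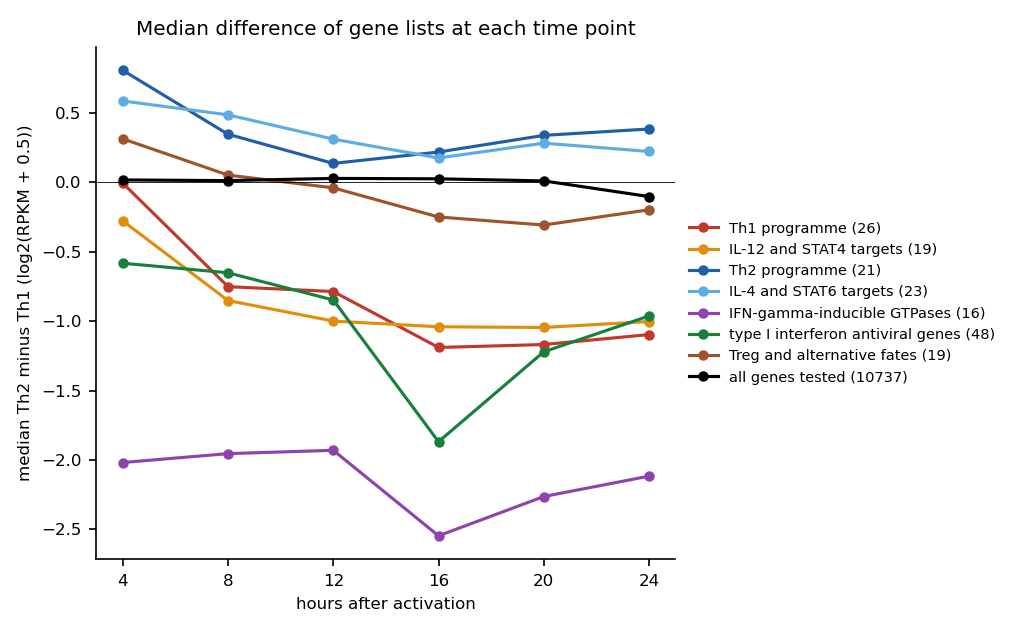
Median Th2 minus Th1 difference on the log2(RPKM + 0.5) scale (y axis) at each time point (x axis, hours) for 7 gene lists and all genes tested, with the number of genes tested in brackets. The Th1 programme went from about 0 at 4 h to -1.10 at 24 h, and the IFN-γ-inducible GTPases stayed at or below -1.93.

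Markers of other spleen cells were present in both conditions. All 11 CD4 T cell markers were above 0 in the 8 libraries, and their summed level was between 1924 and 2390.4 RPKM. The summed level of 20 macrophage and monocyte markers was 99.7, 67.7, 46.1 and 33.0 RPKM in Th1 and 138, 69.0, 32.1 and 22.7 RPKM in Th2 at 4, 8, 20 and 24 h, with at most 1 marker at 0. Their median late minus early difference was -0.54 over the 13 markers tested, of which 10 lay below 0 and 3 above. The 13 B cell markers summed to between 62.0 and 191 RPKM and were higher in Th2 at each of the 4 time points, with a median change of -0.07. The 10 dendritic cell markers (0 to 2 at 0) summed to between 14.6 and 61.6 RPKM and the 12 neutrophil and mast cell markers (1 to 3 at 0) to between 4.12 and 24.3 RPKM. The 12 CD8 T and NK cell markers (0 at 0) summed to 265, 631, 413 and 277 RPKM in Th1 and 265, 449.7, 319 and 222 RPKM in Th2 at 4, 8, 20 and 24 h, so they were highest at 8 h among these time points. The median changes of these 3 lists were -0.11, 0.83 and -0.22, and Eomes was their 1 call. Red cell markers (1 of 13 at 0) fell from 29657 RPKM in Th1 and 47474 RPKM in Th2 at 4 h to 162 and 236 RPKM at 24 h. The Th2 library of 24 h stood apart from that of 20 h: mitochondrial transcripts made up 9.89% of summed RPKM against 6.28%, and the median difference of all genes at 24 h was -0.10. For Tbx21, Lta, Csf1 and Erbb3 the 20 h difference alone was -3.22, -1.99, 3.42 and 3.12. The part of these cells and libraries in the results was not tested.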

How the data were processed

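RNA sequencing was carried out on CD4+ T cell cultures, and the authors deposited 1 table of RPKM values with 22009 entries that have a gene name. Per the submitters' processing notes, BWA and the GRCm38 genome were used, and the annotation and the counting were not given in the sources used here. The members and lists were chosen with earlier results of these data known. A model of log2(RPKM + 0.5) with time point as a factor and condition by window (4 and 8 h, 12 and 16 h, 20 and 24 h) was fitted to 18 Th0, Th1 and Th2 cultures by limma (version 3.58.1, R 4.3.3), whose eBayes step used an intensity trend. The 8 Th1 and Th2 libraries give the estimate, and the others add only to the estimate of the spread. Genes whose mean was under 1 RPKM were left out. The threshold was a Benjamini-Hochberg adjusted p under 0.05 and a difference of at least 1 on the log2 scale. The fit was tested on simulated data.

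Where values were whole multiples of 1 step within 0.02 reads (39.5% of 16823 genes, and 10 of the 23 genes that passed), reads were recovered, and ratios have conditional binomial 95% intervals. These cover counting error only. The genes named are those past the threshold in each class, up to 6 with the largest difference for each sign, members of the lists that passed, and 14 genes that define the conditions, of which 1 is not reported here. Gene positions come from GENCODE M21. Tables were made in Python 3.11.15 (pandas 2.3.3, numpy 2.4.6, scipy 1.17.1). The alternatives were other pseudocounts, filters and scalings, no intensity trend, fewer libraries, a slope over time and leaving out each time point.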

Additional observations from a re-analysis of the deposited data

Results flagged for a closer look

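The effect of skewing differed between the early and late windows, by limma's test of the late minus early difference, in 23 genes, which are those described above. On the log2(RPKM + 0.5) scale the difference moved toward Th1 by -3.35 for Igfbp4, -2.42 for Tbx21, -2.37 for Plaur, -2.14 for Il12rb2, -2.11 for Lta, -2.03 for Bcl2, -1.87 for Sema7a and -1.71 for Ecm1. It moved the same way by -1.57 for Egln3, -1.50 for Csrnp1, -1.49 for Pmepa1, -1.41 for Irf8, -1.40 for Eomes, -1.35 for Lgals3bp, -1.32 for Lif, -1.20 for Foxp3 and -1.20 for Mink1. It moved toward Th2 by 3.54 for Csf1, 2.85 for Erbb3, 2.61 for Id1, 1.97 for Marcks, 1.66 for Tdrp and 1.54 for Gsta4.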

How the results depend on the processing

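The 23 genes kept their direction in 340 of 340 alternatives and stayed past the threshold in 247. With median-of-ratios scaling the calls of Gsta4, Il12rb2, Lif and Mink1 were lost. Without the intensity trend those of Foxp3, Il12rb2, Lgals3bp, Lif and Mink1 were lost. All alternatives but the slope draw on the same 8 libraries, and the separation of early from late fixes the sign when 1 time point is left out. The kept direction is therefore no support for the 23 genes. Their number, 23, was 0 without a filter on low values (limma, 1946 genes at an unadjusted p under 0.05), 158 with only the 8 libraries, 74 for a slope over 6 time points, and between 0 and 261 with 1 time point left out, where the lone time point of a window is assumed to vary like the others. Genes that appeared or grew then numbered 0, 57 and between 0 and 44, and 9 when the mean had to reach 5 RPKM. Those that faded numbered 0, 32 and between 0 and 105, and those that reversed 0, 19 and between 0 and 41 (without a filter, with 8 libraries and with a time point left out). The early number was between 192 and 381 and the late number between 77 and 266 with a time point left out. With that filter, 282, 194, 151, 256 and 209 genes were at least 2-fold apart at 4, 8, 12, 16 and 24 h, since fewer genes were tested. Among genes that did not pass, the change turned its sign for Fcer2a without 8 h, Ifng without 4 h and Stat4 without 8 h (-0.39), without 24 h (-0.31) and as a slope (-0.0024), and with a time point left out it ran from -0.54 to 0.013, from -0.77 to 0.19 and from -0.39 to 0.45. The cause was not tested.

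Medians of small marker lists moved with the filter at 5 RPKM (macrophages -0.87, dendritic cells -0.51) and without a filter (neutrophils and mast cells 0.22). With 1 time point left out the medians ran from -0.76 to -0.18 for macrophages, -0.44 to 0.28 for dendritic cells, -0.36 to 0.71 for red cells, 0.49 to 1.37 for neutrophils and mast cells and -0.28 to -0.085 for CD4 T cells (0.07 with all time points). No paired analysis was possible because each condition and time point has 1 library and the time point, the only number shared between conditions, is already a factor of the fit. Depth limits the low genes, such as Gsta4 with its wide early intervals.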
